A study of Rattus norvegicus with 9 samples.

Results

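Blood cell growth factors and their receptors were measured in rat liver cells at 2 stages of life. The 8 genes were taken by name, with earlier results of these data known. They are the ligands Epo, Thpo, Kitlg and Csf1 and the receptors Epor, Kit, Flt3 and Csf1r. All 8 had a probe set annotated to a single gene, out of 14497 genes in all, and each had 1 such probe set. Thrombopoietin is listed under the symbol Thpol1, for which RefSeq gives Thpo as a synonym, and it is called Thpo here. The ligand of Flt3, Flt3lg, was not measured under a single-gene annotation and is not analysed here.

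The fetal liver is the main blood-forming organ before birth, and its blood precursors lie among hepatocytes, sinusoidal endothelium and stromal cells that supply growth factors. Epo, erythropoietin, is made by fetal hepatocytes before the kidney takes over, and it keeps red-cell precursors alive through its receptor Epor and the kinase Jak2. Thpo, thrombopoietin, is made by hepatocytes throughout life and supports megakaryocytes and blood stem cells. Kitlg, stem cell factor, acts on progenitors and mast cells through the receptor tyrosine kinase Kit. Csf1, macrophage colony-stimulating factor, acts on macrophages through Csf1r, and Flt3 is a related receptor of early progenitors and dendritic cells.

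All animals were rats of the strain F344, and each of 9 arrays (Affymetrix Rat ST 1.0) held total RNA of 1 preparation of freshly isolated liver cells. Adult hepatocytes (3 arrays) came from rats aged 5 to 6 weeks by perfusion and collagenase digestion in steps. The fetal cells were of embryonic day 19, released by collagenase and purified magnetically with antibodies to leucine aminopeptidase (LAP), a surface marker of hepatic cells, and to OC.2, described as a ductal marker. Labelled fetal hepatocytes, they were titled LAP+/OC.2+ (3 arrays, called OC.2+ here) and LAP+/OC.2- (3 arrays, called OC.2-). The labels call the 3 preparations of a group biological replicates, and say nothing of sex, treatment or how many animals entered a preparation. For the OC.2+ arrays the short descriptions read LAP-OC2+, and the isolation text names a double positive selection for both fetal groups, so the groups rest on the titles.

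Levels are log2 of the deposited intensity, a brightness with no absolute scale, and probe sets of different genes are not compared with each other. The median of all genes was 6.59 to 6.62 on adult, 6.69 to 6.72 on OC.2- and 6.68 to 6.69 on OC.2+ arrays, in log2 intensity. No detection call was used, so a level near or below these medians does not show whether a gene was expressed. Arrays of 1 group correlated at 0.986 to 0.992 over all 28826 rows. Between any pair of arrays, of the same group or not, 833 to 1914 of the 28826 rows held exactly the same value, and 241 to 470 rows did so on all 3 arrays of a group. The spread is understated for such rows. A gene was called at a limma adjusted p under 0.05, adjusted over all genes by Benjamini and Hochberg's method.

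The labels were checked against markers of hepatocytes and of other liver cells. All 10 hepatocyte markers fell in OC.2+ against OC.2- cells (median log2 difference -1.96), and their summed intensity was 33554 to 37086 on OC.2+, 76505 to 82592 on OC.2- and 85379 to 92412 on adult arrays. All 9 measured erythroid markers rose (median 1.72), as did 11 of 12 monocyte and granulocyte markers (median 3.63). Of 6 ductal markers, 1 rose and 1 fell. So among fetal cells hepatocyte markers were lower, and red-cell and granulocyte markers higher, on the OC.2+ arrays. In these bulk samples, fewer cells of a type and less RNA per cell cannot be told apart. No value in the table was 0.

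**Figure D1:**
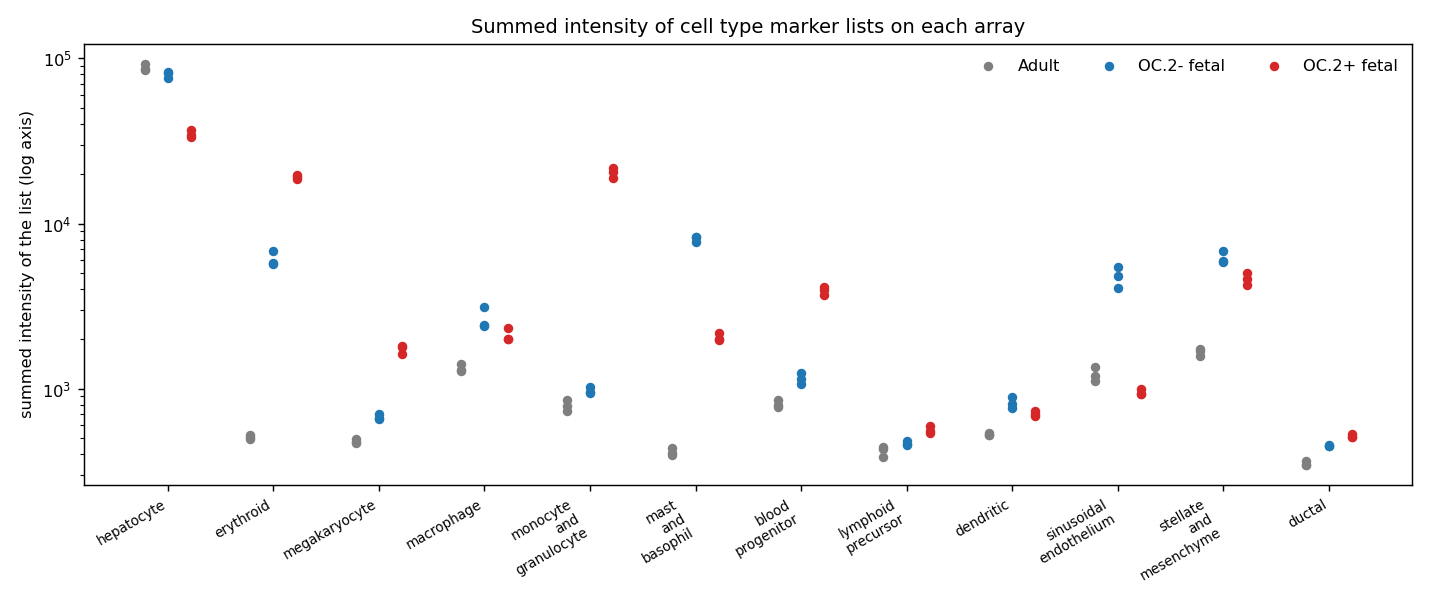
Summed linear intensity (log axis) of each fixed list of cell type markers, 1 point per array, for adult hepatocytes, OC.2- and OC.2+ fetal cells. Erythroid markers reached 18558 to 19615 on the OC.2+ arrays against 5703 to 6784 on the OC.2- arrays, while hepatocyte markers were lowest on the OC.2+ arrays.

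Sequences before the annotated start were looked up for the members, of which 3 receptors rose and 3 ligands fell in OC.2+ against OC.2- cells. RefSeq's promoter table (build GRCr8) held 7 of the 8 genes under their symbols, Thpo as Thpol1, and none for Csf1. The 250 bases before the start are printed for the 3 receptors that rose in OC.2+ cells and for 2 of the ligands that fell. They are from the reference strain, not from F344. Capitals mark every match, on either strand, to the GATA hexamer (GATA with an A or T before it and an A or G after it), the Runx core TGTGGT, the CACCC box CACCC, the TATA box TATAAA, the PU.1 core GAGGAA or the hypoxia core ACGTG, and no matches overlapped.
Epor, chr8:28770323-28770572, minus strand: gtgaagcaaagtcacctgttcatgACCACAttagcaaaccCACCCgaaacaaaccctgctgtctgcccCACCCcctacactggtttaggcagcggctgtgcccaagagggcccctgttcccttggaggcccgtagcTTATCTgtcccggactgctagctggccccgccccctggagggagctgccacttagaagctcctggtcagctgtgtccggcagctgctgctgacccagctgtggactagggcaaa
Kit, chr14:32978813-32979062, minus strand: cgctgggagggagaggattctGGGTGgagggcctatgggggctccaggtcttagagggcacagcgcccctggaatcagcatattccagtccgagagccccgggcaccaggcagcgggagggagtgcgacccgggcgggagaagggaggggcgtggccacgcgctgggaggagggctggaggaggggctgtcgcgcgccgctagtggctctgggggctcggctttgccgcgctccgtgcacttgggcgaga
Flt3, chr12:12659785-12660034, plus strand: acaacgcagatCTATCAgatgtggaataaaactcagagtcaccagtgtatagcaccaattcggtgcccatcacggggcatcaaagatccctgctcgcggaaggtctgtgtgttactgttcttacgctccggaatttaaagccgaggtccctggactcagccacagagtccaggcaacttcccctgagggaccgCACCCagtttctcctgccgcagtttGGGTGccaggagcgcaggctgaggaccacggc
Thpo, chr11:93687068-93687317, plus strand: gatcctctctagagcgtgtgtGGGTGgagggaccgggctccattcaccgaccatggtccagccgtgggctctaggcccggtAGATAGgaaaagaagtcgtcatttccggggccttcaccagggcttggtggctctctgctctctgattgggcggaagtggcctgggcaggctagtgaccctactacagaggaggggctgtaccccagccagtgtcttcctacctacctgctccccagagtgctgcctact
Kitlg, chr7:36782410-36782659, plus strand: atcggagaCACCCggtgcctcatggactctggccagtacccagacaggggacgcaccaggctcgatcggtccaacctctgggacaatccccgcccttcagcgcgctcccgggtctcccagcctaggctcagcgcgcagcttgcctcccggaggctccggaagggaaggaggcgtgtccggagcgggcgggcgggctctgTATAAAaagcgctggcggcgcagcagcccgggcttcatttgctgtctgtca
A GATA hexamer lay 114 bases before the start of Epor, read on the other strand, and others lay in the windows of Flt3 (other strand) and Thpo. The windows of Kit and Kitlg held no GATA hexamer. Of 33469 promoter windows of this length, 27.0% held a GATA hexamer and 49.2% a CACCC box, and of the 7 members looked up, 4 held the first (Epo, Epor, Flt3 and Thpo) and 6 the second (all but Csf1r). The TATA box 51 bases before the start of Kitlg was the only TATA match among the 5, against 12.9% of all windows. The Runx core, found 226 bases before the start of Epor on the other strand, occurred in 14.5% of windows. Matches are letters in the reference and say nothing of binding.

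The first comparison set OC.2+ against OC.2- fetal cells. The receptors Epor, Kit and Flt3 rose and the ligands Thpo, Kitlg and Csf1 fell in the OC.2+ cells, each with 3 arrays on either side that did not overlap. Epo and Csf1r did not pass the test. Of the 8 genes, 3 rose, against 20.3% of all genes called higher, and 3 fell, against 18.2% called lower. Higher genes were 52.8% of all calls on the deposited values and 45.2% after cyclic loess. Either way, 38.5% of all genes were called and the arrays of 46.5% did not overlap between the groups. None of the 8 reached 2-fold, which 3.69% of all genes did upward and 6.63% downward. The median log2 difference was -0.12 over the 8 genes and 0.04 over all genes.

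**Figure D2:**
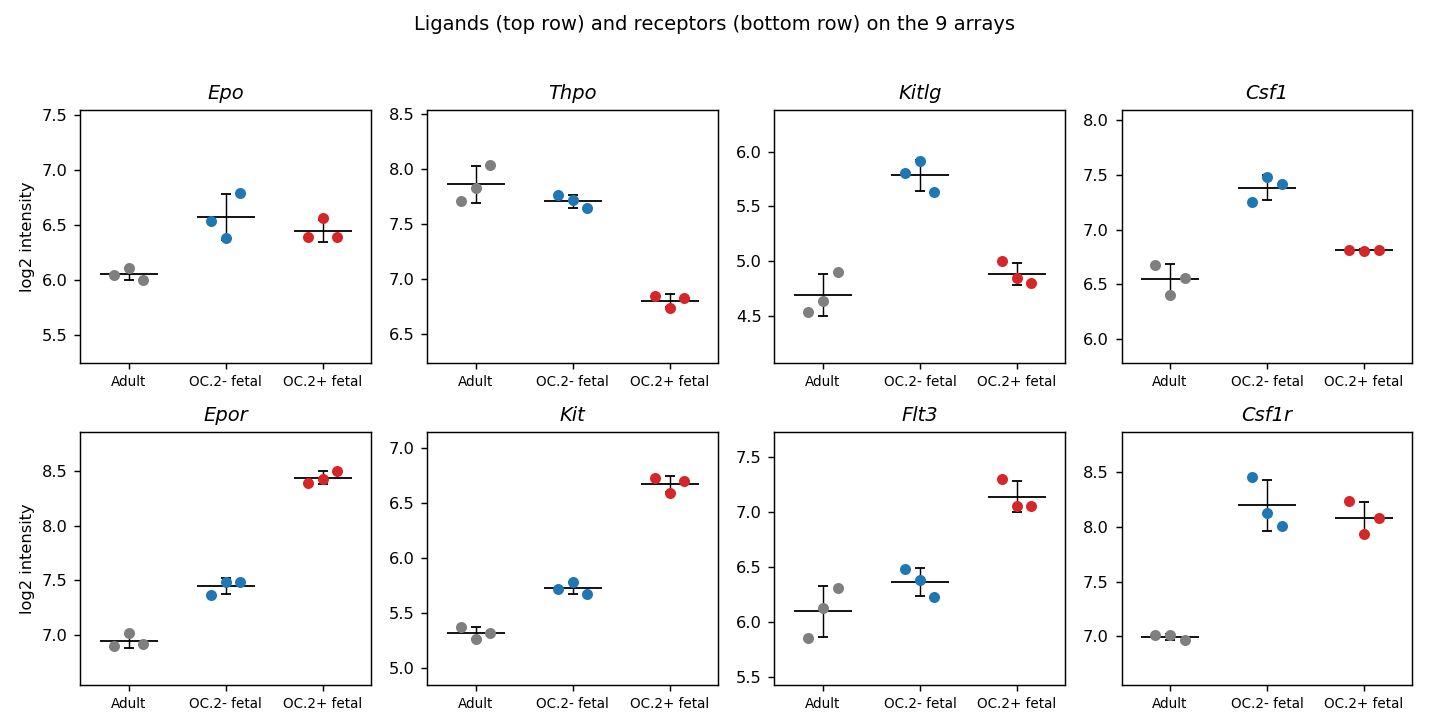
Log2 intensity of the 4 ligands (top row) and 4 receptors (bottom row) on each of the 9 arrays, with the mean (line) and SD (bar) of 3 arrays per group, every panel spanning the same log2 range. Epor, Kit and Flt3 are highest on the OC.2+ arrays, Kitlg and Csf1 on the OC.2- arrays, and Thpo is lowest on the OC.2+ arrays.

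Epor, the erythropoietin receptor of red-cell precursors, had log2 intensities of 8.39, 8.42 and 8.50 on OC.2+, 7.36, 7.49 and 7.49 on OC.2- and 6.90, 7.02 and 6.92 on adult arrays. The 3 groups did not overlap, and the OC.2+ cells were highest. OC.2- replicates 2 and 3 held exactly the same value. Epor was 1.98-fold (95% interval 1.77 to 2.23) higher in OC.2+ than OC.2- cells (adjusted p = 2.53e-07). Beside it, the erythroid markers summed to 18558 to 19615 on OC.2+ and 5703 to 6784 on OC.2- arrays, with Klf1, an erythroid transcription factor, 2.01 ± 0.09 (SE) log2 units higher. The part of red-cell precursors in the Epor difference was not tested.

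Kit, the stem cell factor receptor, had log2 intensities of 6.73, 6.60 and 6.70 on OC.2+, 5.72, 5.78 and 5.68 on OC.2- and 5.37, 5.27 and 5.32 on adult arrays. Its groups were as separate as those of Epor and in the same order, but the adult and OC.2- levels lay below the median of all genes. Kit was 1.93-fold (95% interval 1.73 to 2.16) higher in OC.2+ than OC.2- cells (adjusted p = 3.07e-07). Blood progenitor markers rose in 7 of the 10 measured and fell in 1, with summed intensity 3715 to 4145 on OC.2+, 1062 to 1236 on OC.2- and 777 to 860 on adult arrays. The largest rises on that list were those of Spn (3.25 on the log2 scale), Cd53 (2.56) and Ptprc (2.14), and Meis1 fell (-0.48). Mast cell and basophil markers, which include other cells that bear Kit, went both ways, with 3 of the 9 higher and 4 lower (median -0.13). They summed to 1974 to 2164 on OC.2+, 7738 to 8311 on OC.2- and 398 to 438 on adult arrays, and bright genes weigh most in such a sum. Their largest change was that of Hdc, the histidine decarboxylase that makes histamine, which fell by 2.51 on the log2 scale. The mast cell protease Cpa3, whose value was identical on all 3 OC.2+ arrays, fell by 0.73 and the basophil protease Mcpt8 was 2.28 higher on the log2 scale. The part of progenitors, mast cells and basophils in the Kit difference was not tested.

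Flt3, a receptor of early progenitors, had log2 intensities of 7.30, 7.06 and 7.05 on OC.2+, 6.48, 6.38 and 6.22 on OC.2- and 5.85, 6.12 and 6.31 on adult arrays. The OC.2+ arrays stood above all others, while OC.2- and adult arrays overlapped, at levels below the median of all genes. Flt3 was 1.71-fold (95% interval 1.43 to 2.05) higher in OC.2+ than OC.2- cells (adjusted p = 0.000146). Dendritic markers rose in 1 of the 7 measured and fell in 1, and lymphoid precursor markers rose in 4 of the 7, none of them 2-fold. The summed lymphoid markers were 536 to 594 on OC.2+ and 456 to 482 on OC.2- arrays, and their part was not tested.

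Csf1r, the macrophage colony-stimulating factor receptor, had log2 intensities of 8.23, 7.94 and 8.08 on OC.2+, 8.45, 8.12 and 8.01 on OC.2- and 7.01, 7.01 and 6.97 on adult arrays. The fetal groups overlapped and both stood above the adult arrays. Its difference between the fetal cells was -0.11 (95% interval -0.36 to 0.13, adjusted p = 0.51), and it was 0.02 without OC.2- replicate 1. Macrophage markers summed to 1991 to 2319 on OC.2+ and 2381 to 3102 on OC.2- arrays, with 1 of the 12 higher and 4 lower. The granulocyte colony-stimulating factor receptor Csf3r, also on that list but mainly a receptor of granulocytes, was the 1 that rose (3.29-fold). The mannose receptor Mrc1 was 2.46-fold lower, and the complement genes C1qa, C1qb and C1qc fell by 0.48, 0.68 and 0.56 on the log2 scale.

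Thpo had log2 intensities of 6.84, 6.74 and 6.83 on OC.2+, 7.76, 7.72 and 7.64 on OC.2- and 7.71, 7.83 and 8.04 on adult arrays. OC.2- and adult arrays overlapped, and the OC.2+ arrays lay below both. Thpo was 1.88-fold (95% interval 1.64 to 2.15) lower in OC.2+ than OC.2- cells (adjusted p = 3.00e-06). The 10 hepatocyte markers fell by a median of 1.96 on the same log2 scale on which Thpo fell by 0.91, and the part of hepatocyte RNA in the Thpo difference was not tested.

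Kitlg had log2 intensities of 5.00, 4.85 and 4.80 on OC.2+, 5.80, 5.91 and 5.63 on OC.2- and 4.54, 4.64 and 4.91 on adult arrays. All levels were below the median of all genes, and the OC.2- arrays stood above the others, which overlapped. Kitlg was 1.87-fold (95% interval 1.59 to 2.20) lower in OC.2+ than OC.2- cells (adjusted p = 1.70e-05). All 8 sinusoidal endothelium markers fell as well (median -1.80), with summed intensity 928 to 989 on OC.2+, 4074 to 5490 on OC.2- and 1105 to 1357 on adult arrays. Stellate and mesenchymal markers fell in 11 of 13 (median -0.57). Their sums were 4226 to 5023 on OC.2+, 5842 to 6822 on OC.2- and 1581 to 1743 on adult arrays. So this list was higher on OC.2+ than adult arrays, where Kitlg overlapped. Both cell types are known sources of stem cell factor, and their part was not tested.

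Csf1 had log2 intensities of 6.81, 6.80 and 6.81 on OC.2+, 7.25, 7.48 and 7.41 on OC.2- and 6.68, 6.40 and 6.56 on adult arrays. The OC.2- arrays were highest and no groups overlapped. OC.2+ replicates 1 and 3 held exactly the same value, so the spread of that group is understated. Csf1 was 1.48-fold (95% interval 1.30 to 1.70) lower in OC.2+ than OC.2- cells (adjusted p = 0.000178). The other Csf1r ligand, Il34, was dim, at 5.42 ± 0.10 (SD, n = 3) on OC.2+ and 5.16 ± 0.10 on OC.2- arrays. Its log2 difference was 0.26 ± 0.09 (SE, adjusted p = 0.0405).

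Epo was dim in every group. Its log2 intensities were 6.39, 6.56 and 6.39 on OC.2+, 6.54, 6.38 and 6.79 on OC.2- and 6.05, 6.11 and 6.00 on adult arrays. The fetal groups overlapped, and their difference was -0.13 (95% interval -0.35 to 0.10, adjusted p = 0.41), or from 1.27-fold lower to 1.07-fold higher. The adult arrays lay below all fetal arrays.

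**Figure D3:**
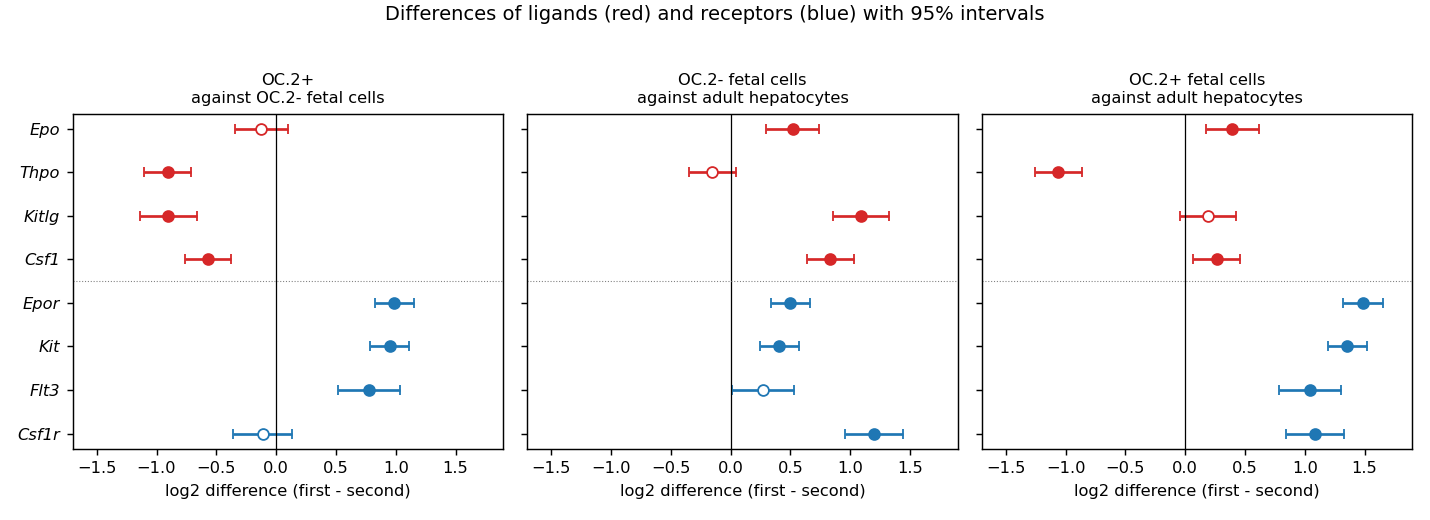
Log2 differences of the 4 ligands (red) and 4 receptors (blue) with 95% intervals from the limma fit of 9 arrays, for the 3 comparisons; filled points were called and open points were not. In OC.2+ against OC.2- cells the called ligands lie at -0.91 to -0.57 and the called receptors at 0.78 to 0.99.

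The second comparison set the OC.2- cells against the adult ones. Age and isolation method differed together here and in the third comparison, so they cannot be told apart. Of the 8 genes 6 rose and none fell: Epo, Kitlg, Csf1, Epor, Kit and Csf1r. Over all genes 23.7% were called higher and 20.9% lower (44.5% either way). The higher calls were 53.1% of all calls on the deposited values, and 34.6% after each array was centred on its median. The 8 genes had a median log2 difference of 0.51, and all genes one of 0.07.

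Csf1r was 2.30-fold (95% interval 1.94 to 2.72) higher in OC.2- cells than in adult hepatocytes (adjusted p = 1.67e-06), and Kitlg 2.13-fold (95% interval 1.81 to 2.51) higher (adjusted p = 2.85e-06). Those 2 members were the only ones to reach 2-fold, as did 4.06% of all genes upward and 6.58% downward. Csf1 was 1.78-fold, Epo 1.43-fold, Epor 1.41-fold and Kit 1.32-fold higher, with 3 arrays against 3 that did not overlap for any of them. The arrays of 6 of the 8 genes did not overlap between these groups, against 51.4% of all genes. Macrophage markers rose in 8 of 12 (2 fell), and the summed list was 2381 to 3102 on OC.2- against 1280 to 1410 on adult arrays. Within it Cd68, C1qa, C1qb, C1qc and Mrc1 were at least 2-fold higher, while Vsig4, a receptor of resident macrophages, was 1.16 lower on the log2 scale. Endothelial markers rose in all 8 (median 1.75) and stellate and mesenchymal markers in 11 of 13. Erythroid markers rose in all 9 (median 2.50), with sums of 5703 to 6784 on OC.2- against 492 to 526 on adult arrays. Mast cell and basophil markers rose in 7 of 9 (median 0.62), with sums of 7738 to 8311 against 398 to 438. Only 5 of these 9 markers were called higher after quantile normalization, median centring or cyclic loess. The largest rise among them was that of Hdc, by 6.71 on the log2 scale, followed by Cpa3 at 2.11. The part of these cells in the members' differences was not tested.

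Thpo differed by -0.15 (95% interval -0.35 to 0.04, adjusted p = 0.189) between OC.2- cells and adult hepatocytes. It was called lower after median centring only (-0.28, adjusted p = 0.0269). Flt3 differed by 0.27 (95% interval 0.01 to 0.53, adjusted p = 0.0867), and passed the test without adult replicate 3 (0.38, adjusted p = 0.0254) and with array weights (0.33, adjusted p = 0.0352). So the levels of these genes in the OC.2- cells and in adult hepatocytes were not separated by the main test.

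The third comparison, of OC.2+ cells with adult ones, shares arrays with both others, so its values are only set beside theirs. All 4 receptors rose, Epo and Csf1 rose, Thpo fell and Kitlg was not called. Over all genes 32% were called higher and 23.4% lower (55.4% either way). The arrays of 7 of the 8 genes did not overlap between the groups, against 62.2% of all genes. Higher genes were 57.8% of calls on the deposited values and 42.2% to 50.2% after the 3 other scalings. The median log2 difference was 0.72 over the 8 genes and 0.11 over all genes.

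Epor was 2.81-fold (95% interval 2.50 to 3.15) higher in OC.2+ cells than in adult hepatocytes (adjusted p = 1.82e-09), Kit 2.56-fold, Csf1r 2.12-fold and Flt3 2.06-fold. These 4 and Thpo reached 2-fold, against 7.82% of all genes upward and 11.1% downward. Thpo was 2.09-fold (95% interval 1.82 to 2.39) lower (adjusted p = 3.33e-07). Beside these, all 9 erythroid markers rose (median 4.58), as did all 12 monocyte and granulocyte markers (median 3.77), all 9 mast cell and basophil markers (median 1.10) and 7 of 10 progenitor markers (median 1.56, 1 fell). Of the 9 mast cell and basophil markers, 7 were called higher after quantile normalization, median centring or cyclic loess. Macrophage markers rose in 7 of 12 and fell in 2, and all 10 hepatocyte markers fell (median -1.66). The part of these cells was not tested. Epo was 1.31-fold higher (95% interval 1.13 to 1.53, adjusted p = 0.00543), on arrays whose all-gene median was also higher. Over the 20 recomputations that kept Epo, its log2 difference was 0.24 to 0.42 (limma adjusted p = 0.00136 to 0.041). Csf1 was 1.20-fold higher (adjusted p = 0.0245), and this call ended under quantile normalization, median centring and cyclic loess (log2 difference 0.12 to 0.16, adjusted p = 0.19 to 0.299). It also ended without adult replicate 2 (0.19, adjusted p = 0.1) or without any 1 of the OC.2+ replicates (0.26 to 0.27, adjusted p = 0.0547 to 0.0598). Kitlg differed by 0.19 (95% interval -0.05 to 0.42, adjusted p = 0.157), and passed without adult replicate 3 (0.30, adjusted p = 0.0327).

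By level, then, Epor and Kit were ordered OC.2+, OC.2-, adult, with each step called. For Flt3 the OC.2+ cells were highest and the other groups did not separate, and for Csf1r and Epo the fetal groups did not separate and both were above adult. Kitlg was highest in OC.2- cells, with no call between the others, and Thpo was lowest in OC.2+ cells, with no call between the others. Csf1 was highest in OC.2- cells, and its step from OC.2+ to adult depended on the scaling.

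Of the 13 other ligands of blood growth measured, 4 rose and 2 fell in OC.2+ against OC.2- cells. Only 2 rose without OC.2+ replicate 2, OC.2+ replicate 3, OC.2- replicate 1 or OC.2- replicate 2, and only 2 after cyclic loess, with all rows tested or at an adjusted p under 0.01. The chemokine Cxcl12, which holds stem cells in their niche, was 2.58-fold lower in OC.2+ than OC.2- cells and 2.14-fold lower in OC.2- cells than in adult hepatocytes. Hgf, the hepatocyte growth factor of mesenchymal cells, was 2.03-fold lower in OC.2+ than OC.2- cells. Osm, oncostatin M, a blood-cell cytokine that matures fetal hepatocytes, was 1.83-fold higher and Angpt1, the ligand of the endothelial receptor Tek, 1.43-fold higher. The interleukins Il3, Il6 and Il7 and the colony-stimulating factors Csf2 and Csf3 were not called in any comparison.

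Among 16 other receptors, 5 rose and 7 fell in OC.2+ against OC.2- cells. Those that rose were receptors of blood cells: Csf3r of granulocytes (3.29-fold), the chemokine receptor Cxcr4 (1.91-fold), the eosinophil receptor Il5ra (1.74-fold), Csf2ra (log2 difference 0.62) and Csf2rb (0.37). Those that fell included Il6st, the shared signalling chain of the interleukin-6 family (5.96-fold), Lifr, the leukaemia inhibitory factor receptor (4.30-fold), the endothelial receptor Tek (3.39-fold) and the hepatocyte growth factor receptor Met (2.99-fold). Against adult hepatocytes, 9 rose and 2 fell in OC.2- cells (4 fell after median centring or cyclic loess), and 7 rose and 5 fell in OC.2+ cells. The shared cytokine chain Il2rg was 2.42-fold and 2.32-fold higher there.

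**Figure D4:**
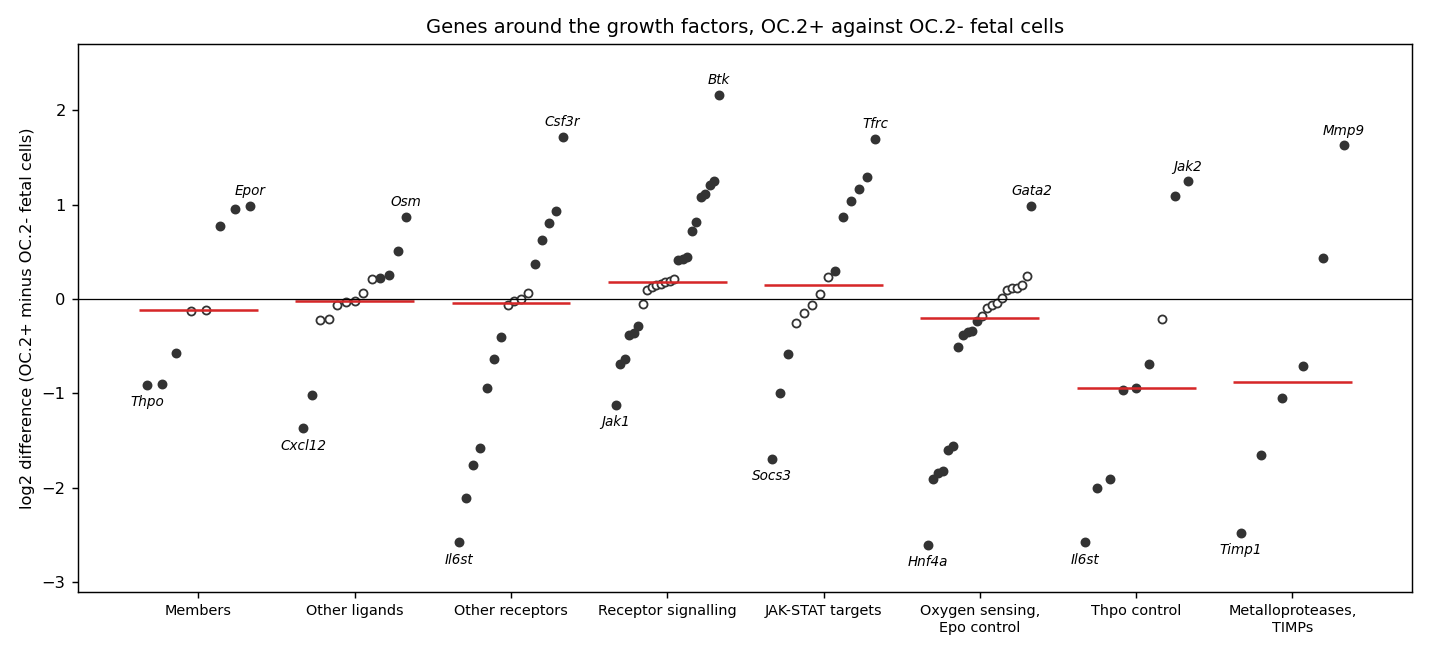
Log2 difference of each gene in OC.2+ against OC.2- cells for the 8 members and 7 related gene lists (some genes stand on more than 1 list); filled points were called, open points were not, red lines are list medians and the lowest and highest gene of each list is named. The lists spread to both sides of 0, from Hnf4a at -2.60 to Btk at 2.16.

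Genes that carry the receptor signal differed in both directions. Of 24 measured, 10 rose and 6 fell in OC.2+ against OC.2- cells (median 0.18, against 0.04 over all genes). Jak2, the kinase bound to Epor, had mean log2 intensity 7.98 on OC.2+, 6.73 on OC.2- and 6.67 on adult arrays, and was 2.37-fold higher in OC.2+ than OC.2- cells (adjusted p = 2.39e-07). Between OC.2- cells and adult hepatocytes it differed by 0.06 ± 0.10 (SE, adjusted p = 0.613). Jak1 was 2.17-fold and Stat3 1.61-fold lower in OC.2+ than OC.2- cells. Btk, a kinase of B and myeloid cells, was 4.46-fold and Vav1, a blood-cell exchange factor, 2.31-fold higher. Against adult hepatocytes 8 rose and 6 fell in OC.2- cells (5 and 10 after median centring), and 14 rose and 6 fell in OC.2+ cells. Over all genes, 23.7% were called higher and 20.9% lower in OC.2- cells against adult. For OC.2+ cells against adult, these shares were 32% and 23.4%.

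Of 14 measured genes that JAK-STAT signalling is known to induce, 6 rose and 3 fell in OC.2+ against OC.2- cells (median 0.14). The transferrin receptor Tfrc, which brings iron into red-cell precursors, was 3.25-fold higher, and the cyclins Ccnd2 and Ccnd3 2.44-fold and 2.24-fold higher. The feedback inhibitor Socs3 was 3.23-fold lower, and Cish, an early target of Epor, 2.00-fold lower with a wide error (95% interval 1.24 to 3.22, adjusted p = 0.0235). That error uses the spread of all 3 groups. Log2 intensities of Cish were 7.07 to 7.17 on OC.2+, 7.97 to 8.21 on OC.2- and 6.64 to 8.48 on adult arrays. Socs2, known for restraining growth hormone signals, was 2.05-fold higher in OC.2+ than OC.2- cells, yet 5.62-fold lower in OC.2- cells than in adult hepatocytes. The kinase Pim1 was 3.00-fold higher in OC.2- and 3.10-fold higher in OC.2+ cells than in adult hepatocytes.

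Of 22 oxygen-sensing genes and factors known to control Epo transcription, 1 rose, 11 fell and 10 were not called in OC.2+ against OC.2- cells (median -0.20). Epas1, the hypoxia-inducible factor that drives Epo in liver, had mean log2 intensity 5.97 on OC.2+, 7.88 on OC.2- and 8.79 on adult arrays. It was 3.75-fold lower in OC.2+ than OC.2- cells and 1.88-fold lower in OC.2- cells than in adult hepatocytes. Hnf4a, which binds the Epo enhancer, was 6.06-fold and Gata4 3.58-fold lower in OC.2+ than OC.2- cells, while Gata2, a factor of blood progenitors, was 1.98-fold higher. Epo itself was dim in every group and was not called between the fetal cells. Hif3a and Egln3, a prolyl hydroxylase that hypoxia induces, were 7.20-fold and 3.62-fold higher in OC.2- cells than in adult hepatocytes, in which Epo was lower. The part of any of these genes in the level of Epo was not tested.

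Of 9 genes tied to Thpo control and platelet clearance, 2 rose and 6 fell in OC.2+ against OC.2- cells (median -0.94). Asgr1 and Asgr2 form the hepatocyte receptor that removes aged platelets and thereby raises Thpo. Asgr1 had mean log2 intensity 6.10 on OC.2+, 7.06 on OC.2- and 9.60 on adult arrays, so it was 1.95-fold lower in OC.2+ than OC.2- cells and 5.81-fold lower in OC.2- cells than in adult hepatocytes. Asgr2 was 3.76-fold and 2.39-fold lower in the same comparisons. Thpo was not called in OC.2- cells against adult hepatocytes by the main test, and a link of these receptor levels to Thpo was not tested. The 5 measured megakaryocyte markers, whose cells respond to Thpo, all rose in OC.2+ against OC.2- cells (median 1.31), with the summed list at 1622 to 1809 on OC.2+ and 651 to 705 on OC.2- arrays.

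The proteases that can shed Kitlg, Csf1 and their receptors, with their inhibitors, were also measured. Of 6, 2 rose and 4 fell in OC.2+ against OC.2- cells. Mmp9, a neutrophil gelatinase known to release stem cell factor, was 3.09-fold and Adam17, the main sheddase of Csf1r, 1.35-fold higher. The inhibitor Timp1 was 5.55-fold, the membrane protease Mmp14 3.14-fold and Timp3 2.06-fold lower. In OC.2- cells against adult hepatocytes, Timp1 was 10.9-fold and Timp3 3.38-fold higher.

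For the 6 members whose group means spanned at least 1 log2 unit, the genes with the nearest profile over the 9 arrays were found as a description, by the root mean square distance of log2 values centred on each gene's mean. Nearest to Kit were Slc43a1, an amino acid transporter, at 0.031 log2 units, Wbp11 at 0.034 and Actr3 at 0.049. Nearest to Epor were Usp31 at 0.044, St8sia4 at 0.069 and Metap2 at 0.073. Flt3 lay nearest to F2rl2 at 0.078, Ddx39a at 0.084 and Nup58 at 0.097. Nearest to Thpo were Ctnnd1, the p120 catenin, at 0.050, Arhgef5 at 0.054 and Bcl9l at 0.085. Kitlg lay nearest to Selenom at 0.082, Rbms1 at 0.097 and Dusp7 at 0.098, and Csf1r to Plod2, a collagen lysyl hydroxylase, at 0.091, Srm at 0.130 and Nrp1 at 0.133. These distances rest on 3 groups and mostly mirror their means.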

How the data were processed

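Each of 9 preparations of rat liver cells, 3 per group, was hybridised to 1 array. Per the labels' protocols, RNA was extracted with the mirVana kit and 150 ng entered the Affymetrix amplification. The deposited table holds linear intensities. The submitters' processing notes list Partek 6.6 and RMA without saying what either did. RMA commonly equalizes the distributions of arrays and compresses differences of dim genes. The genome build was not given in the sources used here.

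Of 28826 rows, 15209 carried 1 gene symbol in the platform annotation, 306 several and 13311 none. Log2 was taken, and the row with the highest mean stood for a gene, which left 14497 genes. Thpol1 was matched to Thpo through RefSeq's synonyms. Limma 3.58.1 (R 4.3.3; lmFit, eBayes) fitted 3 group means over all 9 arrays, with 6 residual degrees of freedom, and tests were 2-sided. The fit was tested on simulated data. Members, lists and comparisons were chosen with earlier results of these data known. Text names the members, up to 3 called genes each way per list and comparison, 8 fixed genes and 3 nearest profiles per member. Other genes named (marker examples, Csf2ra, Csf2rb and genes not called) were chosen after their values were seen. Other scalings, filters, models and left-out arrays were tried.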

Additional observations from a re-analysis of the deposited data

How the results depend on the processing

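The members' differences and the counts of members, listed genes and all genes called were recomputed under 12 alternatives and with each of the 9 arrays left out in turn. Between the fetal groups, 164 of the 165 recomputed differences of the 8 genes kept their direction and their side of the threshold, and the exception was Csf1r, which was not called and ranged from -0.21 to 0.016 with an array left out, the latter without OC.2- replicate 1. Against adult hepatocytes, 162 of 165 did in OC.2- and 156 of 165 in OC.2+ cells, where 8 of the 9 exceptions were Csf1. With an array left out, 6 to 6, 6 to 7 and 6 to 8 members were called in the 3 comparisons, and 5041 to 5595, 5729 to 6217 and 7206 to 8263 genes. A filter at the median dropped Kitlg and Epo, and a filter at the 25th percentile dropped Kitlg. With all 28826 rows in the fit, 9811 rows were called between OC.2- and adult and 12841 between OC.2+ and adult arrays, against 6458 and 8034 genes, since more features were tested. Scaling moved the all-gene median from 0.07 to between -0.06 and -0.01 between OC.2- and adult and from 0.11 to between -0.03 and 0.00 between OC.2+ and adult arrays. Whether the replicate numbers pair the arrays cannot be settled, because deviations from a mean of 3 arrays are not independent. Such deviations of same-numbered arrays correlated at -0.23 to 0.11. In the 3 comparisons, 1, 0 and 4 of 6 arrays lay closest to their own number. With the replicate number as a block, the counts of members called stayed 6, 6 and 7, with 5416, 6199 and 7777 genes called. Precision is limited by having 3 arrays a group.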
